A study of Mus musculus with 20 samples.

Results

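Transcripts of 10 genes of the classical and alternative complement pathways were followed in the mouse diaphragm 12 weeks after fibers were placed in the pleural cavity. The genes were listed by symbol and pathway role, with earlier results of these data known: C1qa, C1qb, C1qc, C2, C4b, C3, Cfb, Cfp, C3ar1 and C5ar1. They are 10 of 34797 named genes on the array, and all 10 were measured well above background on all 20 arrays. Female C57Bl/6 mice aged 8 weeks received 1 intrapleural injection of 100 µL, and each of the 5 groups held 4 mice. The control group received 0.5% BSA/saline, the vehicle shared by every group. The SFA and LFA groups received 25 µg of short or long amosite asbestos, and the NTS and NTL groups received 5 µg of short or long carbon nanotubes. SFA was ground from the same batch of asbestos as LFA, whereas the nanotube samples came from different makers. Asbestos and nanotubes were given at different doses, so material and dose cannot be told apart. RNA came from a snap-frozen part of the diaphragm, which is muscle with its serosal covering, and each mouse was read on its own 1-color array.

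A level is the log2 intensity of a gene's probe minus that of the array's 75th percentile, so a difference of 1 is a 2-fold difference, and levels of different genes are not comparable. A gene was called changed when it differed at least 2-fold between groups with a limma adjusted p under 0.05 over all 36931 probes tested. The limma p-values rest on the spread between mice within groups, pooled over all 5 groups and moderated across probes. In whole tissue, more cells of a type and more RNA per cell cannot be told apart. Intensity at the 75th percentile ran from 249.6 to 839 across arrays, 53.0% to 68.1% of spots were well above background, and none was saturated. That intensity reached at most 561 in control, 508 in SFA and 409 in NTS, but 816 in LFA and 839 in NTL. The brightest arrays were thus long-fiber arrays, and brightness and fiber length partly coincide. The mean level of 6 skeletal muscle markers lay between 7.77 and 9.53 on every array. Alb, which encodes serum albumin of hepatocytes, varied over 12.1 log2 units and exceeded a level of 4 on 11 of the 20 arrays. Its levels were 6.90, -0.85, -0.51 and 1.17 in control, 4.19, 8.86, 7.53 and -1.72 in SFA, 9.08, -0.80, 9.79 and 0.06 in LFA, 0.90, -0.50, 10.35 and 10.11 in NTS, and 5.61, 2.40, 7.40 and 6.64 in NTL. Arrays above and below a level of 4 therefore occurred inside every group, but the groups were not balanced. The lowest NTL array, at 2.40, lay above control replicates 2, 3 and 4. Replicates 3 and 4 of NTS were the highest of all. Each complement gene was set against Alb on the same arrays for this reason.

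Complement is a cascade of proteases and binding proteins that tags targets for uptake. In the classical pathway, C1q, assembled from A, B and C chains, binds antibody or other ligands and leads to the cleavage of C4 and C2, which form a C3 convertase. In the alternative pathway, factor B (Cfb) joins C3b in a second convertase that properdin (Cfp) stabilizes. Both lead to C3 cleavage, and the fragments C3a and C5a act through the receptors C3ar1 and C5ar1 on myeloid cells. Hepatocytes make most plasma C3, C4, C2 and factor B, whereas macrophages are a main source of C1q and leukocytes of properdin.

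The 3 C1q chains rose with both long fibers. Their genes are neighbors on chromosome 4, where the probes start at 136436578 for C1qb, 136445766 for C1qc and 136452409 for C1qa in NCBI37. C1qa stood at 2.77, 2.21, 2.98 and 3.34 in control, at 4.70, 5.25, 3.88 and 5.20 in LFA and at 5.25, 4.80, 5.23 and 5.13 in NTL. Every long-fiber array lay above every control array. It rose by 1.93 ± 0.37 (SE) in LFA, or 3.82-fold (adjusted p = 0.00756), and by 2.28 ± 0.37 in NTL, or 4.86-fold (adjusted p = 0.00114). C1qc stood at 3.09, 3.97, 3.56 and 3.47 in control, at 4.64, 5.83, 4.94 and 5.30 in LFA and at 5.26, 5.65, 5.34 and 5.46 in NTL, again without overlap. Its rise was 1.65 ± 0.26 in LFA, or 3.15-fold (adjusted p = 0.0017), and 1.91 ± 0.26 in NTL, or 3.75-fold (adjusted p = 0.000255).

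C1qb stood at 2.68, 1.72, 2.52 and 3.0 in control, at 4.44, 4.55, 2.94 and 4.71 in LFA and at 4.98, 3.98, 4.89 and 4.75 in NTL. The NTL arrays lay above all control arrays, but replicate 3 of LFA fell just under the highest control. C1qb rose 4.50-fold in NTL (adjusted p = 0.00711) and 3.21-fold in LFA, where the adjusted p of 0.0452 was close to the threshold. The call in LFA was kept in 14 of 34 alternative settings, and without LFA replicates 1, 2 or 4 it ended with adjusted p of 0.101, 0.114 and 0.123.

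In the short-fiber groups the C1q chains stayed near control. C1qa averaged 2.93 ± 0.75 in SFA and 3.20 ± 0.34 in NTS against 2.82 ± 0.47 in control (mean ± SD, n = 4). C1qc averaged 3.68 ± 0.10, 3.70 ± 0.28 and 3.52 ± 0.36 in the same order, and C1qb 2.29 ± 0.95, 2.46 ± 0.35 and 2.48 ± 0.54. The arrays of each short-fiber group overlapped with control for all 3 chains.

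**Figure D1:**
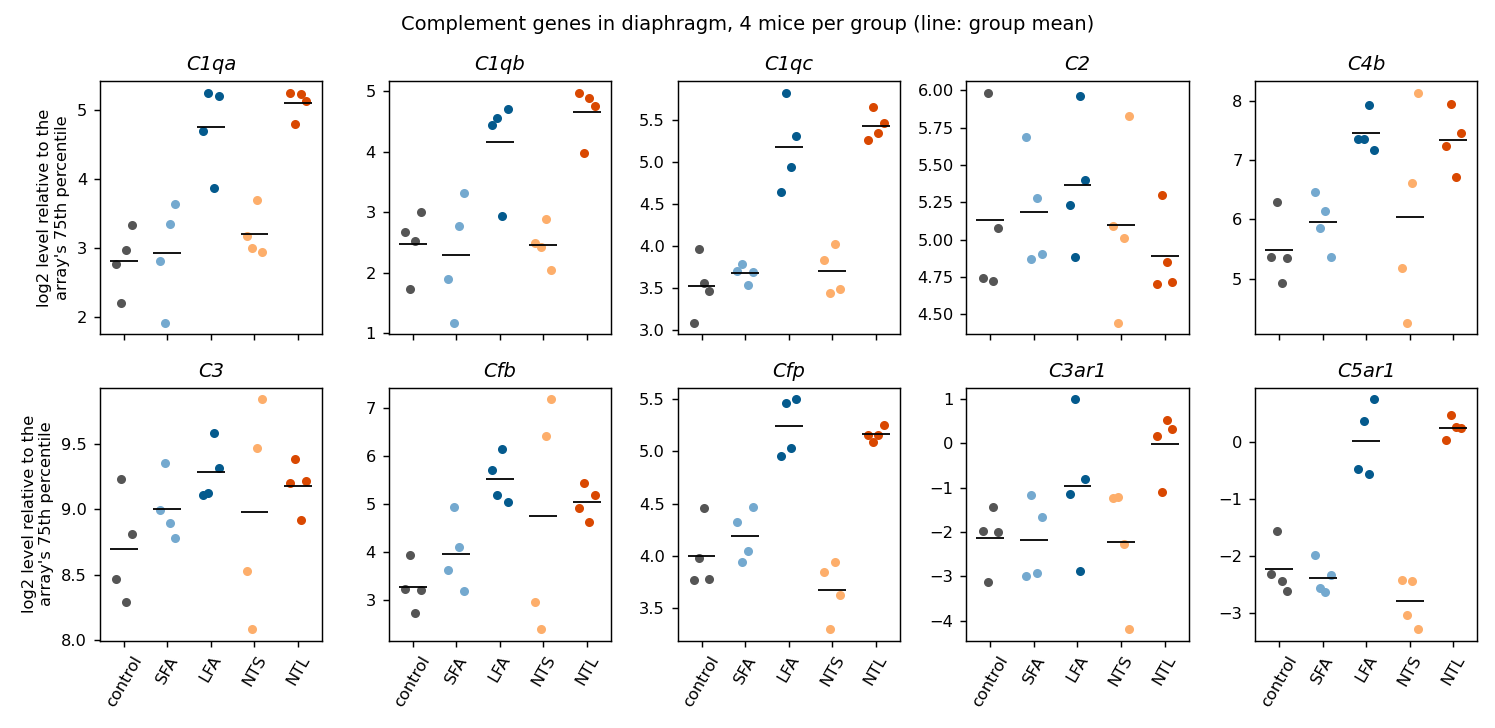
Level of each of the 10 genes on every array (y axis, log2 relative to the array's 75th percentile, own scale per gene), by group, with 1 point per mouse and a line at the group mean. C1qa, C1qc, Cfp and C5ar1 separate LFA and NTL from the other groups, while replicates 3 and 4 of NTS stand above replicates 1 and 2 for Cfb, C4b and C3.

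Beyond C1q, properdin and the C5a receptor rose with both long fibers. Cfp, made mainly by leukocytes, stood at 3.76, 3.98, 4.46 and 3.78 in control, at 4.95, 5.47, 5.04 and 5.50 in LFA and at 5.16, 5.09, 5.16 and 5.25 in NTL. The arrays did not overlap, and the rise was 2.37-fold in LFA (adjusted p = 0.00537) and 2.25-fold in NTL (adjusted p = 0.00394). C5ar1, the G protein-coupled receptor of C5a, stood at -2.32, -1.57, -2.44 and -2.62 in control, at -0.47, 0.37, -0.57 and 0.76 in LFA and at 0.04, 0.47, 0.27 and 0.25 in NTL. Its rise was the largest of the 5 called genes, 2.26 ± 0.32 or 4.80-fold in LFA (adjusted p = 0.000773) and 2.50 ± 0.32 or 5.64-fold in NTL (adjusted p = 0.000168). In SFA and NTS, C5ar1 averaged -2.38 ± 0.29 and -2.80 ± 0.43 against -2.24 ± 0.46 in control, and Cfp 4.19 ± 0.24 and 3.67 ± 0.28 against 3.99 ± 0.32.

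C3ar1, the C3a receptor, spread more widely between mice. It stood at -1.98, -3.13, -1.43 and -2.0 in control, at -1.14, 1.0, -2.88 and -0.81 in LFA and at 0.15, -1.10, 0.52 and 0.31 in NTL. All NTL arrays lay above control, with a difference of 2.11 ± 0.74 that missed the threshold (adjusted p = 0.0927). The LFA arrays overlapped with control and differed by 1.18 ± 0.74 (adjusted p = 0.353). With Alb as a covariate the NTL difference was 2.55 and passed (adjusted p = 0.0371), 1 of only 3 among 34 alternative settings in which it did.

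Of the 10 genes, 5 were called higher in LFA and the same 5 in NTL (C1qa, C1qb, C1qc, Cfp and C5ar1), and none was lower. Over all probes tested, 2.29% were called higher in LFA and 3.66% in NTL. Every LFA array lay above every control array for 6 of the 10 genes and every NTL array for 8, against 5.04% and 6.61% of all probes. The median difference of the 10 genes was 1.67 in LFA and 1.88 in NTL, beside -0.23 in both for all probes, a median that quantile normalization brought to -0.08 and -0.09. Both comparisons share the control arrays.

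**Figure D2:**
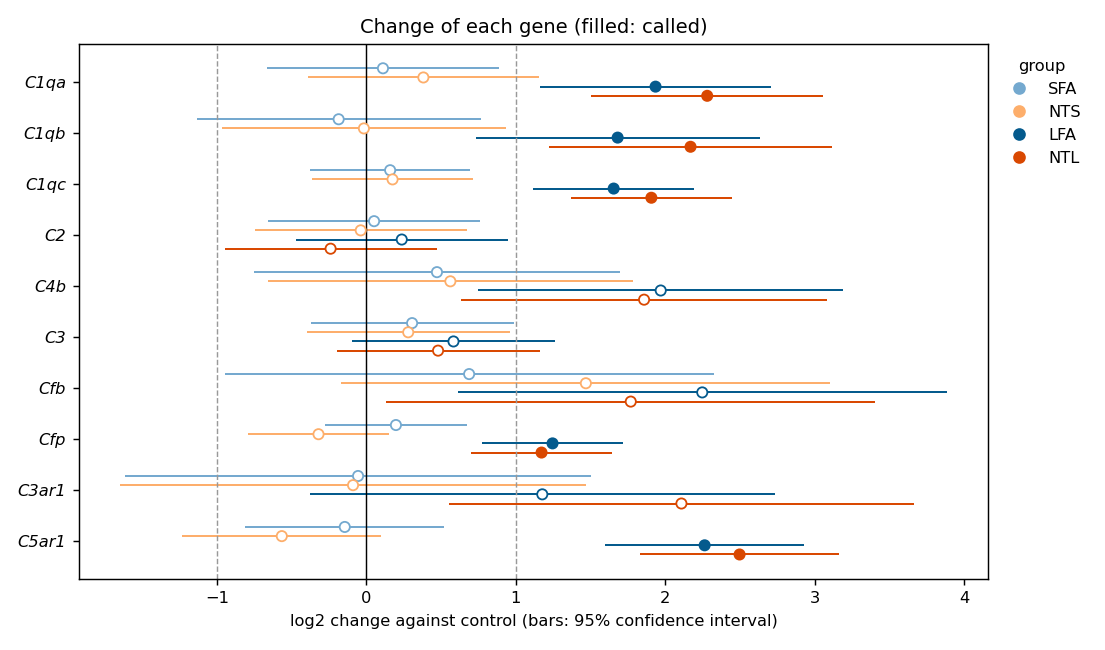
Difference of each gene from control (x axis, log2) in the 4 fiber groups, with 95% confidence intervals from limma as bars and filled points for called genes. The 5 filled rows, C1qa, C1qb, C1qc, Cfp and C5ar1, are filled in LFA and NTL and open in SFA and NTS.

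Promoter sequences were at hand for 6 of the 10 genes, C1qb, C1qc, C3, Cfp, C3ar1 and C5ar1, and those of 4 called genes are shown to set the genes that moved together side by side. Each is the 250 bases before the RefSeq start in GRCm38.p6, 5′ to 3′ on the gene's strand, with motif matches in capitals. The windows lie at chr4:136886201-136886450 for C1qb, chr4:136892915-136893164 for C1qc, chr7:16259339-16259588 for C5ar1 and chrX:20931556-20931805 for Cfp, all on the minus strand.
C1qb: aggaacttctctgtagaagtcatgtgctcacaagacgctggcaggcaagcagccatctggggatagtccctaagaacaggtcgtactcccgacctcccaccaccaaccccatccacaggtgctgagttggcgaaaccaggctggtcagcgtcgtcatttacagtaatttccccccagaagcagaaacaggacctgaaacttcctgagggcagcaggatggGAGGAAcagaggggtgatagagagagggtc
C1qc: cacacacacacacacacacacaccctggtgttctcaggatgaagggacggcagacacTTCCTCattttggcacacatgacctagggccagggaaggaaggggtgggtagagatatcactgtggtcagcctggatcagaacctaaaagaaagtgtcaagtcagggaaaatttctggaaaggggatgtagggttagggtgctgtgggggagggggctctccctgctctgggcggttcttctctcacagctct
C5ar1: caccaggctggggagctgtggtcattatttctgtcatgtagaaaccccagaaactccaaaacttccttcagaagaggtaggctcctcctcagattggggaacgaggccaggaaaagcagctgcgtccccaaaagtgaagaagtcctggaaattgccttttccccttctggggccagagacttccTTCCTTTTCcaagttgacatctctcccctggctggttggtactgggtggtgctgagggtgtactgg
Cfp: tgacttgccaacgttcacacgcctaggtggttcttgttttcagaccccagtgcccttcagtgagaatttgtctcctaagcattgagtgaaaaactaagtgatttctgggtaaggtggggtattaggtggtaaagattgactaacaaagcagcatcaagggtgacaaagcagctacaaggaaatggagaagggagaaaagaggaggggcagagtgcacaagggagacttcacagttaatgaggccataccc

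The letters searched on both strands were GAGGAA for PU.1, a myeloid factor, GGANTTTCC for NF-kB, TTCNNNGAA for STAT factors, GAAANNGAA for the interferon-response element, TTNNGCAA for C/EBP and GTTAATNAT for the hepatocyte factor HNF1. Matches of different motifs may share bases. C1qb holds the PU.1 letters at -30 to -25 from its start, and C1qc holds them on the other strand at -193 to -188. These letters are found in 23.3% of 32851 promoters of the same length. C5ar1 holds the interferon-response letters on the other strand at -66 to -58, as 7.13% of promoters do. The C3 window holds the C/EBP letters at -45 to -38, found in 9.56% of promoters, and Cfp and C3ar1 hold none of the 6. The other shares were 1.07% for NF-kB, 7.02% for STAT and 0.737% for HNF1. A match is a description of letters and not a binding site.

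The components that form the convertases behaved less evenly. C4b, the cleaved opsonin precursor of the classical pathway, stood at 5.36, 6.30, 4.92 and 5.35 in control, at 7.36, 7.36, 7.93 and 7.16 in LFA, at 7.23, 7.95, 6.72 and 7.46 in NTL and at 5.17, 4.26, 6.61 and 8.14 in NTS. All LFA and NTL arrays lay above control, while NTS ran from under the lowest control to above every LFA array. The differences were 1.97 ± 0.58 in LFA, 3.92-fold (adjusted p = 0.0634), and 1.86 ± 0.58 in NTL, 3.62-fold (adjusted p = 0.0605), and neither passed. C4b has a near-identical paralog, C4a, which its probe may not tell apart.

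Cfb showed the same picture with a wider spread. It stood at 3.23, 3.94, 2.72 and 3.20 in control, at 5.71, 5.18, 6.15 and 5.05 in LFA, at 4.92, 5.44, 4.63 and 5.19 in NTL and at 2.96, 2.39, 6.43 and 7.19 in NTS. LFA and NTL did not overlap with control, yet the differences of 2.25 ± 0.78 (adjusted p = 0.104) and 1.77 ± 0.78 (adjusted p = 0.182) did not pass. The spread is shared by all groups in the fit, and without replicates 3 and 4 of NTS the same differences passed for Cfb (adjusted p = 0.00306 in LFA and 0.00755 in NTL) and for C4b (0.00426 and 0.00364). Leaving out these arrays, the highest of NTS for both genes, was not planned. Cfb was called in 3 of 34 alternative settings in LFA and in 2 of 34 in NTL.

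C3, the central component of all pathways, was read by a pair of probes on chromosome 17. On the brighter probe it stood at 8.47, 9.23, 8.29 and 8.81 in control, at 9.11, 9.12, 9.58 and 9.32 in LFA and at 9.20, 9.39, 8.92 and 9.22 in NTL. The groups overlapped, and the differences were 0.58 ± 0.32 (adjusted p = 0.29) and 0.48 ± 0.32 (adjusted p = 0.407). The other probe gave 0.78 and 0.61, also short of the threshold. Under quantile normalization C3 passed in both groups, at 1.19 in LFA (adjusted p = 0.0238) and 1.12 in NTL (adjusted p = 0.02).

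C2, the protease precursor that forms the classical convertase with C4b, averaged 5.13 ± 0.59 in control, 5.37 ± 0.45 in LFA and 4.89 ± 0.28 in NTL (mean ± SD, n = 4), with full overlap. Its differences were 0.24 and -0.24 with opposite signs, and the NTL sign turned under quantile normalization. C2 and Cfb are neighbors on chromosome 17 with related products, and their probes lay at 34999575 to 34999634 for C2 and at 34993502 to 34993858 for Cfb in NCBI37.

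Fiber length was tested within each material. The nanotube samples came from different makers, so length and maker cannot be told apart in NTL against NTS. C5ar1 was 5.31-fold higher in LFA than in SFA (adjusted p = 0.000709) and 8.36-fold higher in NTL than in NTS (adjusted p = 1.59e-05), without overlap. C1qc was higher by 1.50 with asbestos (adjusted p = 0.00566) and by 1.73 with nanotubes (adjusted p = 0.00037), and C1qa by 1.82 (adjusted p = 0.0168) and 1.90 (adjusted p = 0.0033). Cfp was higher by 1.05 (adjusted p = 0.024) and 1.49 (adjusted p = 0.00043). C1qb was higher by 2.19 in NTL than in NTS (adjusted p = 0.00529), and by 1.87 in LFA than in SFA, where arrays overlapped and the adjusted p of 0.0498 was just inside the threshold.

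The same 5 genes were thus called in both length comparisons, against 1.13% of all probes higher in LFA than SFA and 4.96% higher in NTL than NTS. The asbestos count rested on few arrays, since without LFA replicate 2, LFA replicate 4 or SFA replicate 2 it was 2, and without SFA replicate 3 it was 3. C4b and Cfb were above SFA on every LFA array, by 1.50 and 1.56, without passing (adjusted p = 0.305 and 0.44). Against NTS they overlapped, at 1.30 and 0.30. The length effect did not pass a test of difference between the materials for any of the 10 genes, with differences, nanotubes minus asbestos, from -1.26 for Cfb to 0.96 for C3ar1 and a lowest unadjusted p of 0.162. Over all probes 0% passed that test.

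None of the 10 genes was called in SFA or NTS against control, where 0% of all probes were called in either group, and none had an unadjusted limma p under 0.05. The lowest unadjusted p was 0.357 in SFA and 0.0757 in NTS. The methods' test with unequal variances runs over all 5 groups at once and is no test of either short fiber, and the 5 genes that passed it differed from control by less than 2-fold in SFA and NTS. All 10 genes overlapped with control in both groups, and 0.574% of all probes in SFA and 0.612% in NTS lay above control on every array. The differences ran from -0.19 to 0.69 in SFA, and their 95% intervals from -1.61 to 2.32. In NTS they ran from -0.57 to 1.47, the latter for Cfb. A 2-fold difference in either group is therefore within the intervals for several genes.

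LFA and NTL were then set against each other, at their different doses. The 10 genes overlapped between them, none was called, none had an unadjusted limma p under 0.05, and 0% of all probes were called. The difference, LFA minus NTL, was -0.35 for C1qa (95% interval -1.12 to 0.43), -0.49 for C1qb (-1.44 to 0.46), -0.25 for C1qc (-0.79 to 0.29), 0.07 for Cfp (-0.40 to 0.55) and -0.23 for C5ar1 (-0.90 to 0.43). The intervals for Cfp, C1qc and C5ar1 leave out a 2-fold difference, and those for C1qa, C1qb, Cfb (-1.16 to 2.11) and C3ar1 (-2.49 to 0.63) do not.

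The arrays lay on 3 slides, each holding several groups. Within slides, the 5 called genes were higher in LFA than control by 0.82 to 2.72 on slide 1 (2 LFA arrays against 1), 1.08 to 2.24 on slide 2 (1 against 2) and 1.01 to 2.81 on slide 3 (1 against 1). They were higher in NTL than control by 1.29 to 2.78 on slide 2 (1 NTL array against 2) and 0.71 to 2.77 on slide 3 (3 against 1). Within-slide differences from short to long fibers were 0.82 to 2.90 and 1.21 to 2.86 for asbestos on slides 2 and 3 and 1.59 to 2.78 for nanotubes on slide 2, each 1 long-fiber array against 2 short-fiber arrays. With slide as a block, C1qa and C1qb in NTL against NTS stood at 1.61 and 1.84 and no longer passed (adjusted p = 0.0559 and 0.0936). C1qb then stood at 1.66 in LFA against control (adjusted p = 0.0691) and at 1.95 in LFA against SFA (adjusted p = 0.0863), and neither passed.

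Each gene's slope on Alb was fitted within groups. Cfb increased with Alb by 0.179 ± 0.046 log2 units per log2 unit of Alb (adjusted p = 0.0375), the only one of the 10 slopes to pass, where 3.02% of all probes passed. Leaving out any of 13 single arrays ended that call, with slopes between 0.142 and 0.191, and without replicates 3 and 4 of NTS the slope was 0.072 (adjusted p = 0.762). C4b had a slope of 0.095 (adjusted p = 0.365) and C3 of 0.047 (adjusted p = 0.462). The slopes of C1qa, C1qb, C1qc, Cfp and C5ar1 were -0.040, -0.043, -0.033, -0.023 and -0.048, that of C2 was 0.024, and none passed. C3ar1 had the steepest negative slope, -0.114 (unadjusted p = 0.0458, adjusted p = 0.415).

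Arrays of high and low Alb within 1 group were set side by side. In NTS, replicates 3 and 4 lay on slide 1 and replicates 1 and 2 on slide 2, so Alb and slide cannot be told apart there. Replicates 3 and 4 of NTS averaged 4.14 above replicates 1 and 2 for Cfb, 2.66 for C4b and 1.35 for C3, with both arrays above both others. For C1qa, C1qb, C1qc, Cfp and C5ar1 the same difference was between -0.12 and 0.23, and for C2 it was 0.65. C3ar1 went the other way, at -2.02, with both arrays below both others. Replicates 2 and 4 of LFA had Alb levels of -0.80 and 0.06, inside the range of control. On these arrays C1qa was 5.25 and 5.20, C5ar1 0.37 and 0.76, C4b 7.36 and 7.16, and Cfb 5.18 and 5.05, each above every control array.

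Over the 12 control, SFA and NTS arrays, Cfb correlated with Alb by Pearson r (0.805, permutation p = 0.00034, adjusted over 20 relations 0.0068). Its Spearman rho was 0.769 (permutation p = 0.005, adjusted 0.1) and did not pass, as 0 of the 20 relations passed by Spearman rho. Without replicates 3 and 4 of NTS, the 2 arrays farthest from the median, r was 0.687 and its adjusted permutation p 0.269. C4b and C3 had r of 0.664 and 0.657 (adjusted permutation p = 0.0654 and 0.0894), and C1qa, C1qb and C1qc had r of -0.069, -0.242 and -0.040. Over the 8 LFA and NTL arrays, Cfp, C5ar1 and C1qc ran against Alb with r of -0.837, -0.834 and -0.759 (adjusted exact permutation p = 0.0654, 0.0654 and 0.0894). For Cfp that relation was -0.408 without replicates 2 and 4 of LFA.

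With Alb as a covariate in the fit, the 5 called genes stayed called in LFA and NTL. C1qa was then higher by 2.05 and 2.43, C1qb by 1.80 and 2.33, C1qc by 1.75 and 2.03, Cfp by 1.31 and 1.26, and C5ar1 by 2.40 and 2.68. Cfb was at 1.74 (adjusted p = 0.12) and 1.08 (adjusted p = 0.323) at equal Alb, and C4b at 1.70 and 1.49.

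**Figure D3:**
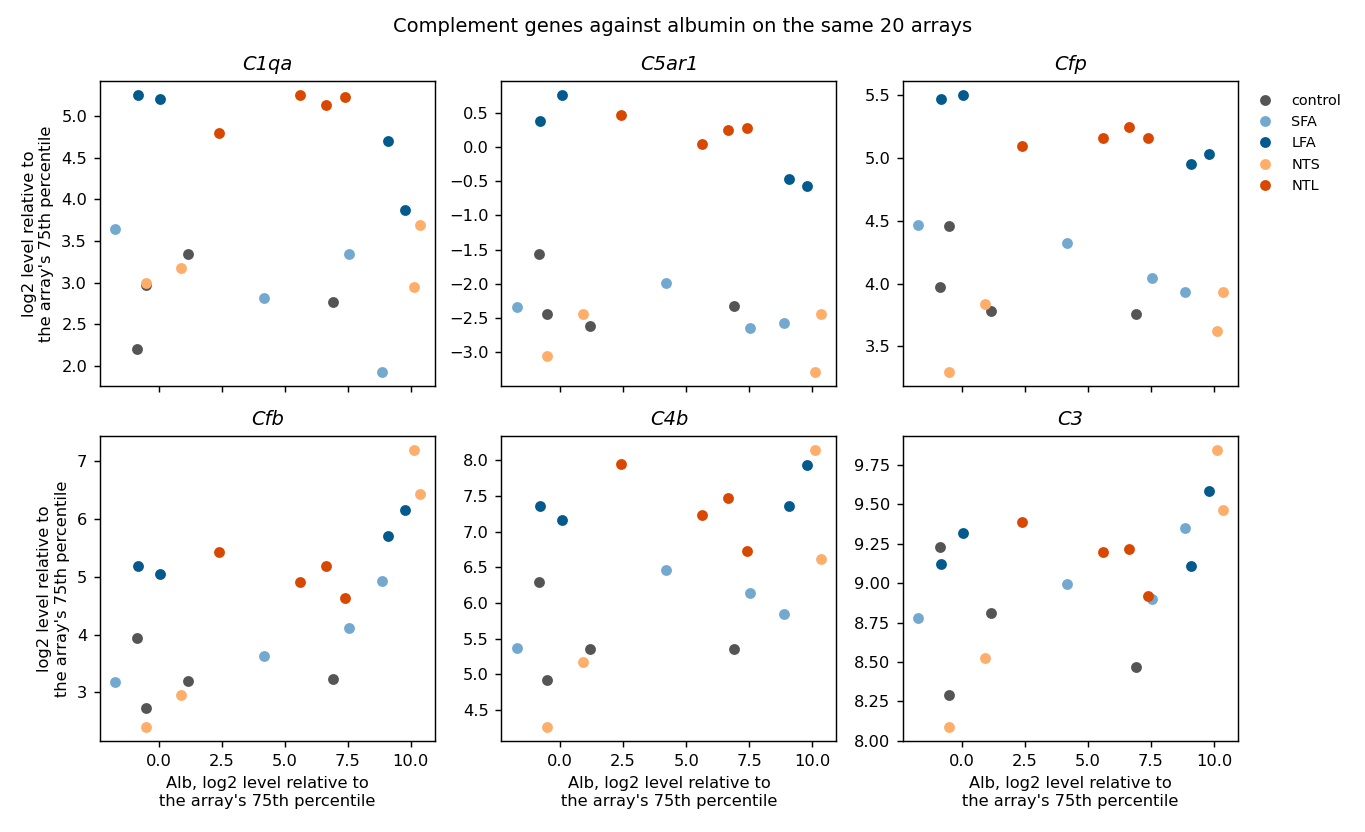
Level of 6 genes (y axis, log2 relative to the array's 75th percentile, own scale per gene) against the level of Alb on the same array (x axis, same unit), with 1 point per mouse colored by group. C1qa, C5ar1 and Cfp of LFA sit above control, SFA and NTS at low and high Alb, and those of NTL at Alb levels from 2.40 to 7.40. Cfb rises toward the NTS arrays at Alb levels of 10.11 and 10.35.

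The rest of the complement system was read from a list of 42 other genes, of which 41 were on the array by name and tested. In LFA 3 of the 41 were called higher, in NTL 6, and none lower, beside medians of 1.16 and 0.74. Vsig4, a macrophage receptor for C3b and iC3b, had the largest rise of those called, 4.28 in LFA (adjusted p = 0.0120) and 3.70 in NTL (adjusted p = 0.0160). Itgb2, the shared beta chain of the complement receptors CR3 and CR4, rose by 1.97 (adjusted p = 0.00252) and 2.42 (adjusted p = 0.000226). The CR3 alpha chain Itgam was lower without being called, at -0.75 in LFA and -0.57 in NTL. With Alb as a covariate it stood at -0.51 in LFA and -0.25 in NTL. C6, a component of the membrane attack complex, rose by 2.28 (adjusted p = 0.0223) and 2.82 (adjusted p = 0.00306). In NTL the CR4 alpha chain Itgax rose by 2.50, the second C5a receptor C5ar2 by 1.15 and the C1 protease C1s by 1.12. None of the 6 called genes passed the comparison of LFA with NTL.

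Other plasma components tracked Alb and did not pass. Slopes on Alb passed for 16 of the 41 genes, from 0.138 to 1.0. They were 6 of 12 initiating components, 5 of 8 soluble regulators and 5 of 7 terminal components, and none of 6 membrane regulators or 7 receptors. None of the 16 was called in LFA or NTL, and all 6 called genes were among the other 25. Genes that follow Alb spread widely within groups in the fit without Alb, so a call was hard to reach for them. The lack of calls therefore says little about these 16. Hc, which encodes C5, was higher by 3.68 in LFA without passing (adjusted p = 0.343) and had a slope of 0.744. With Alb as a covariate Hc stood at 1.55 in LFA (adjusted p = 0.137) and at -0.33 in NTL (adjusted p = 0.8). The lectin pathway recognition genes Mbl1 and Mbl2 had slopes of 0.817 and 1.0, and Mbl2 levels ran from -4.70 to 8.67. The terminal genes C8a, C8b, C8g and C9 had slopes of 0.680, 0.673, 0.516 and 0.510, against 0.064 for C6. Vsig4 had a slope of 0.154 that did not pass (adjusted p = 0.292), steeper than the lowest slope that passed.

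**Figure D4:**
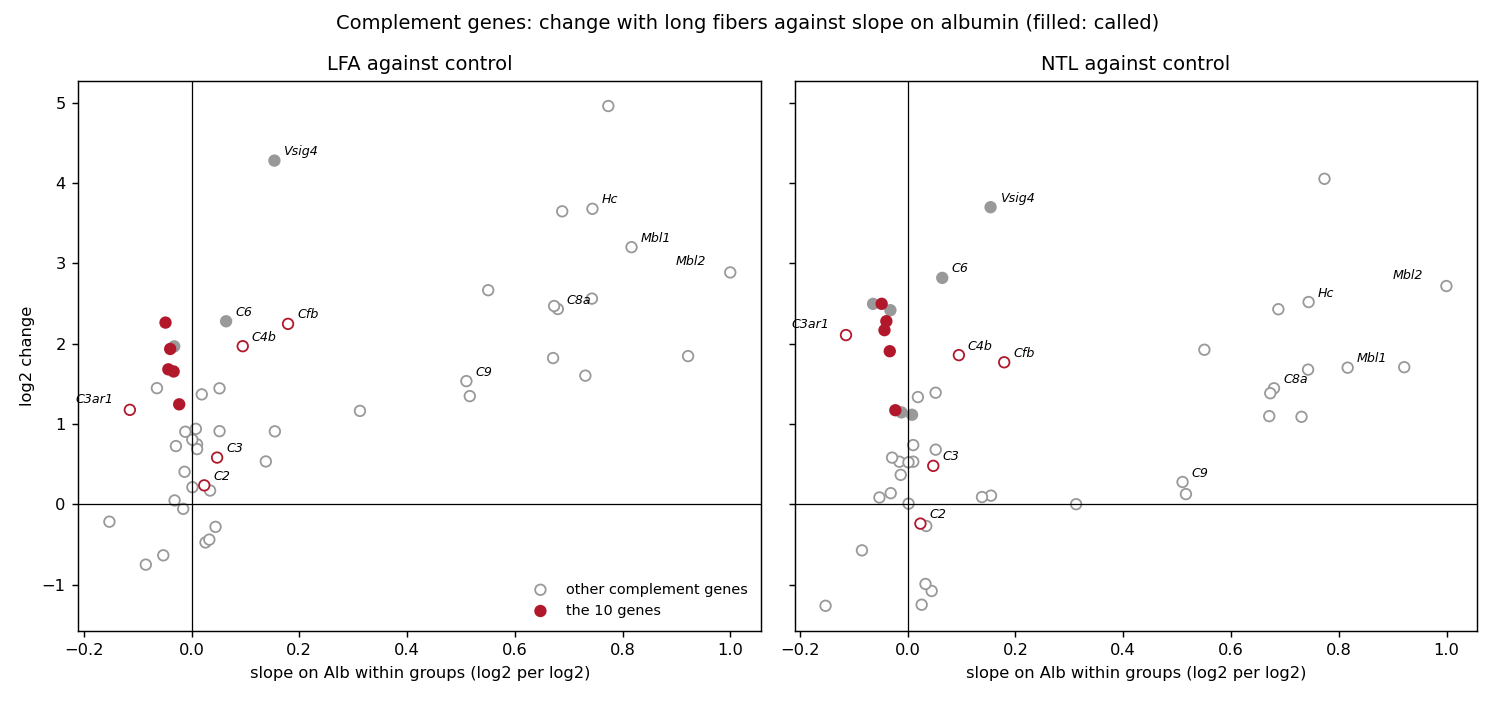
Difference from control (y axis, log2) against the slope on Alb within groups (x axis, log2 per log2) for the 10 genes (red) and 41 other complement genes (gray), in LFA and NTL, filled where called. Called genes lie left of the slopes of Hc and Mbl2, with Vsig4, at a slope of 0.154, and C6 the highest called gray points in NTL, and the unlabeled red filled points are the C1q chains, Cfp and C5ar1.

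Markers of cell types moved with these groups. Of 10 macrophage markers 8 were called higher in LFA and 9 in NTL, with medians of 2.09 and 2.40. Their mean level was 0.90 to 1.20 in control, 0.90 to 1.64 in SFA, 2.97 to 3.74 in LFA, 0.57 to 1.62 in NTS and 3.22 to 3.64 in NTL. The long-fiber groups thus lay above the rest, as they did for C1qa, C1qc, Cfp and C5ar1. Of the Kupffer cell markers, Cd5l rose by 3.0 in LFA and 2.88 in NTL, and Clec4f, at 2.96 and 1.98, did not pass (adjusted p = 0.463 and 0.668). With Alb as a covariate Cd5l was higher by 2.53 in LFA (adjusted p = 0.0488). In NTL it was then at 2.26 and did not pass (adjusted p = 0.0594). Of 14 liver markers none was called, but 14 were higher than control in LFA, SFA and NTS and 13 in NTL. Their median difference was 2.52 in LFA, 2.17 in NTL, 2.39 in SFA and 3.69 in NTS, with a wide spread within groups. The mean level of these markers ran from -1.86 to 3.57 in control, -2.95 to 6.11 in SFA and -2.41 to 6.70 in LFA. It ran from -1.91 to 7.94 in NTS and from -0.86 to 3.59 in NTL. Of neutrophil, B cell, T cell and mesothelium markers none was called in either group, and 1 of 5 fibroblast markers was called in LFA and 3 in NTL. The 6 skeletal muscle markers were lower in LFA and NTL, with none called in LFA and 2 called in NTL, where 2 of 4 adipocyte markers also fell. The part of macrophages and of muscle content in the complement differences was not tested. For liver RNA, the differences at equal Alb are those given above.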

How the data were processed

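RNA was extracted with TRIzol, labeled with Cy3 and hybridized to Agilent 60K whole mouse genome arrays, 1 per mouse. Per the file headers and labels, the deposited intensity is the background-subtracted processed signal of Agilent Feature Extraction 10.7.3.1, with probe positions in NCBI37. The authors' normalized log2 table of group means has no per-mouse values and gave no test.

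Log2 intensities were centered on each array's 75th percentile after outlier-flagged and control spots were left out, and spots of a probe were averaged. Probes well above background on at least 4 of 20 arrays were tested (36931), with limma 3.58.1 in R 4.3.3, lmFit and eBayes, 1 mean per group and Benjamini-Hochberg adjustment. Each gene is given by its brightest tested probe. Alb slopes were fitted with group means plus the Alb level, and correlations tested by permutation. The number of arrays limits precision. The methods' 2-fold and adjusted p criteria were kept. The code was tested on simulated data.

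The 10 genes, the marker and complement lists and the motifs were chosen with earlier results of these data known. Named outside the 10 by rule were Alb, the called complement genes, 8 lectin and terminal components (C6 among both), and the 5 genes most like C1q. Itgam was named outside that rule, as the alpha chain of CR3. Cd5l and Clec4f are the whole Kupffer cell list. Alternatives covered background correction, normalization, filters, probe summaries, covariates, blocks and left-out arrays. Replicate numbers did not pair mice.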

Additional observations from a re-analysis of the deposited data

Results flagged for a closer look

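Among 120 sets of 4 arrays (24 genes in 5 groups), 4 held an array whose gap to its nearest neighbor took most of the range, where chance gives about 1 in 20 sets. C1qb in LFA replicate 3 was 2.94 with the other 3 arrays between 4.44 and 4.71. The other 3 sets were all in NTL replicate 3, where C6 was -1.17 (others -0.16 to -0.05), Itgax 3.70 (others 1.86 to 2.0) and Itgb2 3.87 (others 2.75 to 2.93). No length effect of the 10 genes passed a test of difference between the materials.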

How the results depend on the processing

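The calls of C1qa, C1qc and C5ar1 in LFA and NTL held in all 34 alternatives, and Cfp in NTL in 34 and in LFA in 33, the exception being the fit of only the groups compared (adjusted p = 0.0613). Of the 10 genes, those called in LFA against SFA numbered 3 under quantile normalization, 3 with the replicate block, 1 with only the groups compared and 2 with array brightness as a covariate. In NTL against NTS they numbered 3 with slide as a block and 3 with scan day as a block, which was added after seeing the data, and in NTL against control 8 with only the groups compared. The slope on Alb passed for 0 genes without replicates 3 and 4 of NTS, and 0 of 20 Alb relations passed without the 2 farthest arrays. Leaving out single arrays gave 4 to 7 called genes in LFA, 5 to 6 in NTL, 2 to 5 in LFA against SFA, 5 to 6 in NTL against NTS, 0 to 1 for the slope and 0 to 0 for the other comparisons. With the replicate block C1qb lost its call in LFA (adjusted p = 0.0513). With array brightness as a covariate C1qb fell to 1.19 in LFA against control (adjusted p = 0.0814). It then stood at 1.36 in NTL against NTS (adjusted p = 0.0711), and neither passed. Replicate numbers were not a pairing, since same-number deviations correlated no more than others. Same-number pairs ran from -0.68 to 0.69 with a median of -0.09, and 14 of 40 exceeded 0.1. Pairs of other numbers ran from -0.73 to 0.73 with a median of -0.0065, and 54 of 120 exceeded 0.1. C4b was called in 8 of 34 alternatives in each of LFA and NTL.

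Reversed signs were all in uncalled differences. C2 in NTL against control was 0.16 (quantile normalization) and 0.11 (brightness covariate) and -0.38 to 0.045 with single arrays left out, the highest without control replicate 2. C2 in NTL against NTS was 0.21 (quantile normalization), 0.14 (slide block), 0.26 (brightness covariate), 0.0067 (scan day block), 0.12 without replicates 3 and 4 of NTS and -0.42 to 0.043 with single arrays left out, the highest without NTS replicate 4. In LFA against SFA, C2 was -0.058 and C3 -0.066 with the slide block, and C2 ran from -0.012 (without LFA replicate 3) to 0.35 with single arrays left out. In NTS against control, C4b was -0.77 and Cfb -0.60 without replicates 3 and 4 of NTS, and C4b ran from -0.14 (without NTS replicate 4) to 1.16 with single arrays left out. In NTL against NTS, Cfb ran from -0.48 to 1.12, below 0 without NTS replicate 1 (-0.29) or 2, and C3 from -0.10 (without NTS replicate 2) to 0.49. The cause was not tested. Slides and scan times coincide, so the scan block equals the slide block.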

Other observations

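The genes whose levels ran most like the mean of the 3 C1q chains over the 20 arrays, a description that mixes the 5 groups, were Gp49a (r = 0.972), Cd300lb (r = 0.969), Grn (r = 0.965), Fcgr3 (r = 0.958) and Cd84 (r = 0.954). Gp49a, a receptor of myeloid cells, was higher by 2.63 in LFA and 3.31 in NTL, Cd300lb by 2.80 and 3.36, and Cd84 by 2.30 and 2.94, all called. Grn, which encodes progranulin, was higher by 0.82 in LFA, under the 2-fold criterion, and by 1.09 in NTL, where it was called. Fcgr3, an IgG receptor, was called in NTL at 2.47 and did not pass in LFA at 1.72 (adjusted p = 0.0663).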
